A study of Homo sapiens with 4 samples.

Results

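A set of 33 integrin and focal adhesion genes was followed in RPE1 cells depleted of TOP2B, of 60725 genes in the count table. The genes were taken by name: 15 integrin chains and 18 proteins that bind or signal from integrins at the inner face of the membrane. Of these, 32 reached 10 reads in 2 or more of the 4 libraries and were tested together with 15356 genes in all. The remaining gene, FERMT1, which encodes the epithelial kindlin, had at most 2 reads in a library and was not tested.

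Gene expression had been measured by RNA-seq in hTERT-RPE1 cells, human retinal pigment epithelium immortalized by telomerase, which here also expressed the SunTag system. The control group (2 libraries) received, as the labels give it, 10 nM of the Silencer Select Negative Control No. 2 siRNA, and the TOP2B knockdown group (2 libraries) received 10 nM of the Dharmacon ON-TARGETplus SMARTpool against TOP2B. Both were transfected again 48 h after the first transfection and harvested 72 h later, on day 5. The siRNA sequences differ between the groups, so that loss of TOP2B and any other effect of a given siRNA cannot be told apart, and a single cell line was used. In bulk RNA, a smaller share of cells expressing a gene and less RNA per cell cannot be told apart either.

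The libraries held between 20310259 and 23887013 counted reads. TOP2B itself had 154.9 and 143.5 CPM (counts scaled to a common library size by TMM, where 1 CPM is 20.2 to 23.9 reads) in control against 15.3 and 13.3 CPM in knockdown libraries, which leaves 9.58% of the control level. Of 10 genes that define retinal pigment epithelium, RPE65, TYR and DCT had no read in any library, RLBP1 had at most 1 read, and MITF and OTX2 were present. The summed level of these 10 genes ran from 51.4 to 53.5 CPM in control and from 60.8 to 61.5 CPM in knockdown libraries. Of 4 epithelial keratin genes, KRT8 and KRT18 were abundant. KRT7 had a mean of 11.4 CPM in control and 17.9 CPM in knockdown libraries, and KRT19 had at most 9 reads. The leukocyte and keratinocyte lists summed to at most 0.395 CPM in any library. The 4 endothelial markers summed to 9.08 to 13.5 CPM in control and 8.78 to 10.6 CPM in knockdown libraries, most of it KDR, while CDH5 had at most 1 read. None of these lists held a called gene, and of 3 neuronal markers 1, SYT1, was called lower.

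Integrins are cell surface receptors made of one alpha and one beta chain, which bind proteins of the extracellular matrix outside the cell and, through talin and kindlin, the actin cytoskeleton inside. The alpha chain largely sets which matrix protein is bound. Beta1 pairs with most alpha chains, whereas beta3, beta5 and beta8 pair mainly with alphaV and beta4 pairs only with alpha6. Clustered integrins collect kinases and adaptors into focal adhesions, where FAK (PTK2), paxillin, vinculin and the complex of ILK, PINCH and parvin carry force and signals.

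After TOP2B knockdown, 6 of the 32 genes were higher (LIMS1, ITGB3, FLNA, ITGA3, CAV1 and TNS3) and 2 were lower (ITGA6 and TLN2), called where the p of edgeR's quasi-likelihood test, adjusted over all genes, was below 0.05. This is 25% of the genes tested, where 10.8% of all genes were called, 6.66% higher and 4.18% lower. Both this list and the wider list below were chosen with earlier results of these data known. The tested members were also more abundant, with a median of 271 CPM against 20.8 CPM over all tested genes. The shares are thus a description and no test of the set. The remaining 24 genes did not pass. The log2(fold change) of knockdown over control had a median of 0.043 over the 32 genes and of -0.0029 over all genes. It was above 0 for 19 genes and below 0 for 13. The 2 groups of libraries did not overlap for 18 of the 32 genes, against 54.3% of all genes. The reads of the 33 genes made up 1.55% and 1.43% of the control libraries and 1.91% and 1.78% of the knockdown libraries. Most of that rise lay in FLNA and ITGA3. Their mean levels were 2368 and 1253 CPM in control and 4468 and 2164 CPM in knockdown libraries. With fits on 3 libraries, 2 genes were called higher without control replicate 2 and also without knockdown replicate 1, and 4 without either of the others, while LIMS1, ITGB3 and ITGA6 were called in every such fit. The number called lower was 4 without control replicate 2, 5 without knockdown replicate 1, 2 without control replicate 1 and 1 without knockdown replicate 2.

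**Figure D1:**
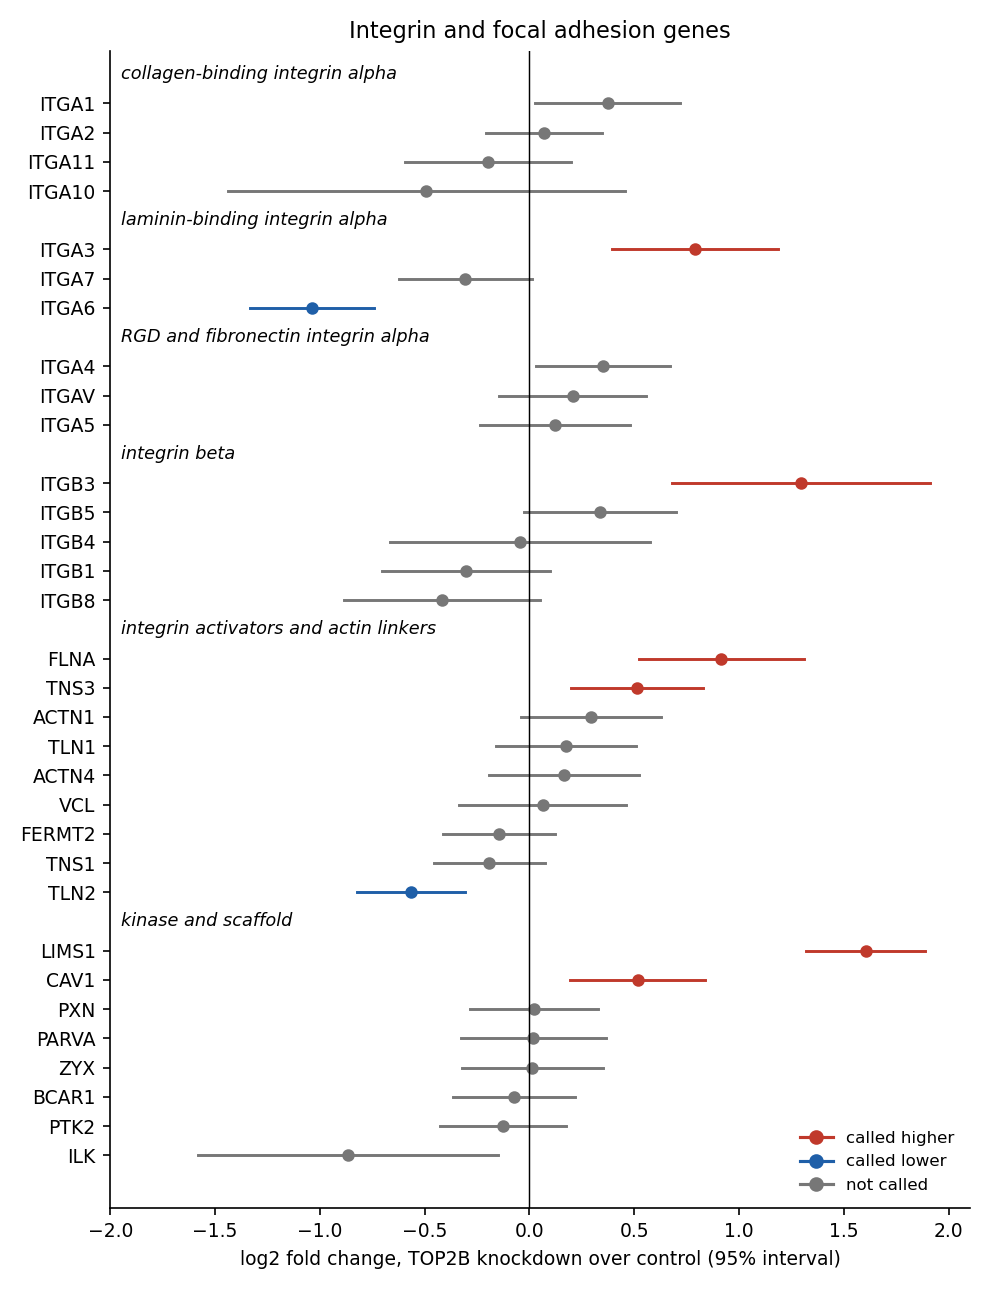
Log2 fold change of TOP2B knockdown over control for the 32 tested integrin and focal adhesion genes, grouped by role. Points are edgeR estimates, lines are 95% intervals, red marks the 6 genes called higher, blue the 2 called lower and grey the 24 that did not pass; ITGA3 and ITGA6 lie on opposite sides of 0 within the laminin-binding chains.

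The alpha chains that bind laminin, the main protein of basement membranes, were the only class of integrin alpha chains with called members, and these moved in opposite directions. ITGA3 (chromosome 17 of GRCh38 from 50055968 to 50090481) encodes alpha3, a receptor for laminins of epithelial basement membranes that pairs with beta1. It had control levels of 1373 and 1133 CPM and knockdown levels of 2329 and 1999 CPM. Both knockdown libraries lay above both control libraries, and ITGA3 rose by 0.79 ± 0.18 on the log2 scale (SE; p adj = 0.0208, edgeR). With 3 libraries it was 0.66 without control replicate 2 (p adj = 0.182) and 0.68 without knockdown replicate 1 (p adj = 0.197), and it stayed called without either of the others.

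ITGA6 (chromosome 2 from 172427354 to 172506459) encodes alpha6, which pairs with beta1 and, in hemidesmosomes, with beta4. It had 318.6 and 294.7 CPM in control against 156.6 and 142.2 CPM after knockdown. Both knockdown libraries lay at about the same level, well below the control libraries. ITGA6 fell by 1.04 ± 0.13 on the log2 scale (SE; p adj = 0.00177, edgeR), and the value ran from -1.10 to -0.96 in the fits on 3 libraries. The third laminin-binding chain, ITGA7, had a mean of 368.9 ± 41.1 CPM in control against 298.3 ± 17.7 CPM after knockdown (SD, n = 2), with a log2(fold change) of -0.31 and a 95% interval of -0.62 to 0.01 that did not pass the test. The level of ITGA3 per kb of transcript was 5.13 and 4.57 times that of ITGA6 in the control libraries and 17.7 and 16.7 times in the knockdown libraries, a ratio chosen after the values were seen.

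The genome sequence just before the start of ITGA6 is shown because ITGA6 is the largest fall of the set, beside that of FLNA, the highest per kb of transcript among the genes that rose. They are the 250 bases before the first RefSeq transcript start on GRCh38.p14, 5′ to 3′ on the strand of the gene, at chr2:172427086-172427335 (plus strand) for ITGA6 and chrX:154374635-154374884 (minus strand) for FLNA. Capitals mark a TATA box (TATAAA on either strand) in ITGA6, and in FLNA 5 GC boxes (GGGCGG on either strand) and one CArG box, the motif bound by the serum response factor.
ITGA6: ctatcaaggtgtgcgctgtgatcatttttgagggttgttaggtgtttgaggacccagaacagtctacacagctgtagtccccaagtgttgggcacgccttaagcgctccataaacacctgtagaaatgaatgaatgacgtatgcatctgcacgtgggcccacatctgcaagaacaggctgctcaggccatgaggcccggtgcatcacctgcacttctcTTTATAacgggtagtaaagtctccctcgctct
FLNA: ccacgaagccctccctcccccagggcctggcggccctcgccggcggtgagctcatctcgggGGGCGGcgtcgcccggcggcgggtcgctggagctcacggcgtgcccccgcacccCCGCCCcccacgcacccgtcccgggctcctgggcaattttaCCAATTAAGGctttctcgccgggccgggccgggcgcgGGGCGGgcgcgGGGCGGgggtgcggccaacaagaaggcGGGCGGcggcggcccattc
Of the 33 genes, 26 had a promoter window in the RefSeq table (300 bases, of which 50 follow the start). A gene was counted where any of its windows held the motif, so that genes with more annotated starts had more chances of a match. A GC box was found in 76.9% of these 26 genes and in 75.9% of the 11037 tested genes with a window. A TATA box was found in 4 of the 26 (ITGA6, ITGB1, ACTN1 and LIMS1), or 15.4%, against 8.61% of the tested genes. The AP-1 motif TGANTCA was found in 15.4% against 7.32%, and the TEAD motif GGAATG in 26.9% against 15.2%. A CArG box was found in 2 of the 26, ACTN1 and FLNA, and in 1.57% of the tested genes. A second RefSeq start of ITGA6 lies downstream, and the 250 bases before it (chr2:172427336-172427585, not printed) hold 3 GC boxes and no TATA box. A match is a description of the letters and no evidence of binding.

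None of the chains that bind collagen passed the test. ITGA11, a collagen receptor typical of fibroblasts, stood highest among them per kb of transcript, with control levels of 749.2 and 546.0 CPM and knockdown levels of 598.8 and 529.9 CPM, which overlap. ITGA2, the alpha2 collagen receptor of epithelia and platelets, had 130.5 and 115.2 CPM in control against 131.8 and 126.0 CPM after knockdown, with a 95% interval of the log2(fold change) of -0.21 to 0.34. ITGA1 had 49.6 ± 9.71 CPM in control and 64.2 ± 7.93 CPM after knockdown (SD, n = 2), a log2(fold change) of 0.37 and p adj = 0.159 by edgeR's test. Of the fits on 3 libraries, it was called in that without control replicate 1, where the value was 0.59 (p adj = 0.0312, edgeR). ITGA10, a cartilage collagen receptor, had control levels of 13.9 and 4.39 CPM and knockdown levels of 7.83 and 5.16 CPM. Its control replicates lay further apart than the groups, and its log2(fold change) of -0.49 became 0.57 without control replicate 1 and passed the test without control replicate 2 (-1.08) and without knockdown replicate 1 (-0.82).

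The chains that bind fibronectin or ligands with an RGD motif all had a log2(fold change) above 0, and none passed. ITGA5, the main fibronectin receptor with beta1, had 1393 and 1211 CPM in control against 1452 and 1385 CPM after knockdown, with a log2(fold change) of 0.12 and a 95% interval of -0.23 to 0.48. ITGAV, the shared partner of beta3, beta5 and beta8, had control levels of 281.1 and 221.4 CPM and knockdown levels of 312.7 and 267.2 CPM, which overlap, with a log2(fold change) of 0.21. ITGA4, which also binds VCAM1, had 32.5 ± 3.59 CPM in control and 41.5 ± 5.89 CPM after knockdown (SD, n = 2) and a log2(fold change) estimated at 0.35 (p adj = 0.149, edgeR). Another gene, CERKL, covers 26.4% of its exon bases.

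Among the 5 beta chains of the set, the only called gene had the lowest control level per kb of transcript. ITGB3 (chromosome 17 from 47253827 to 47313743) encodes beta3, the partner of alphaV in a vitronectin receptor. It had 31 and 25 reads in the control replicates and 65 and 57 reads in the knockdown replicates, or 1.29 and 1.10 CPM against 3.07 and 2.83 CPM. The groups did not overlap, and ITGB3 rose by 1.30 ± 0.28 on the log2 scale (SE; p adj = 0.0168, edgeR), between 1.19 and 1.42 in the fits on 3 libraries. A long noncoding gene covers 33.2% of its exon bases, and reads from the overlap cannot be assigned where strand was not used.

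ITGB1, the common partner chain, had 1109 and 835.0 CPM in control against 851.8 and 726.1 CPM after knockdown. The groups overlap, although within each replicate number the knockdown library was the lower one. The log2(fold change) of -0.30 had a 95% interval of -0.70 to 0.10 (p adj = 0.327, edgeR). ITGB5, second among the beta chains per kb, had 442.8 ± 75.7 CPM in control and 559.0 ± 48.8 CPM after knockdown (SD, n = 2) and a log2(fold change) estimated at 0.34 (p adj = 0.225, edgeR). ITGB8, which with alphaV activates latent TGF-beta, had 166.1 ± 48.6 CPM in control and 124.5 ± 29.1 CPM after knockdown (SD, n = 2). Its log2(fold change) of -0.42 did not pass (p adj = 0.244, edgeR), but did without control replicate 2 (-0.68, p adj = 0.0150) and without knockdown replicate 1 (-0.67, p adj = 0.0258), and with no filter on counts (-0.42, p adj = 0.0482). ITGB4, the hemidesmosome chain, had between 1.69 and 1.88 CPM in the 4 libraries and a 95% interval of -0.67 to 0.58.

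Levels were set side by side per kb of the canonical transcript, which allows chains of different length to be compared. In control cells the alpha chains of the set ran in the order ITGA5 (306.4 ± 30.3 CPM per kb, SD, n = 2), ITGA3 (256.3 ± 34.7), ITGA7 (89.4 ± 9.95), ITGA11 (63.5 ± 14.1), ITGA6 (52.7 ± 2.91), ITGAV (35.7 ± 6.01), ITGA2 (15.7 ± 1.37), ITGA4 (4.80 ± 0.53), ITGA1 (4.62 ± 0.90) and ITGA10 (1.78 ± 1.31). The control values of ITGA11 and ITGA6 overlap, but ITGA11 stood above ITGA6 in each control library (73.5 against 54.8 and 53.6 against 50.7 CPM per kb). ITGA4 stood below ITGA1 in control replicate 1 (5.17 against 5.26) and above it in control replicate 2 (4.425 against 3.98). The order of ITGA4 and ITGA1 is thus not fixed. In knockdown cells ITGA3 stood first with 442.6 ± 47.6 CPM per kb (SD, n = 2), above ITGA5 with 333.7 ± 11.2, and ITGA6 had moved below ITGAV. ITGA3 made up 30.8% of the summed level of the alpha chains of the set in control and 44.2% in knockdown cells, and ITGA6 6.35% and 2.57%. Among the beta chains of the set ITGB1 held 68.7% of the summed level in control and 60% in knockdown cells, and ITGB5 26.3% and 35.8%. ITGB3 and ITGB4 together held well below 1% in either condition, and ITGB3 passed ITGB4 in the knockdown libraries.

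**Figure D2:**
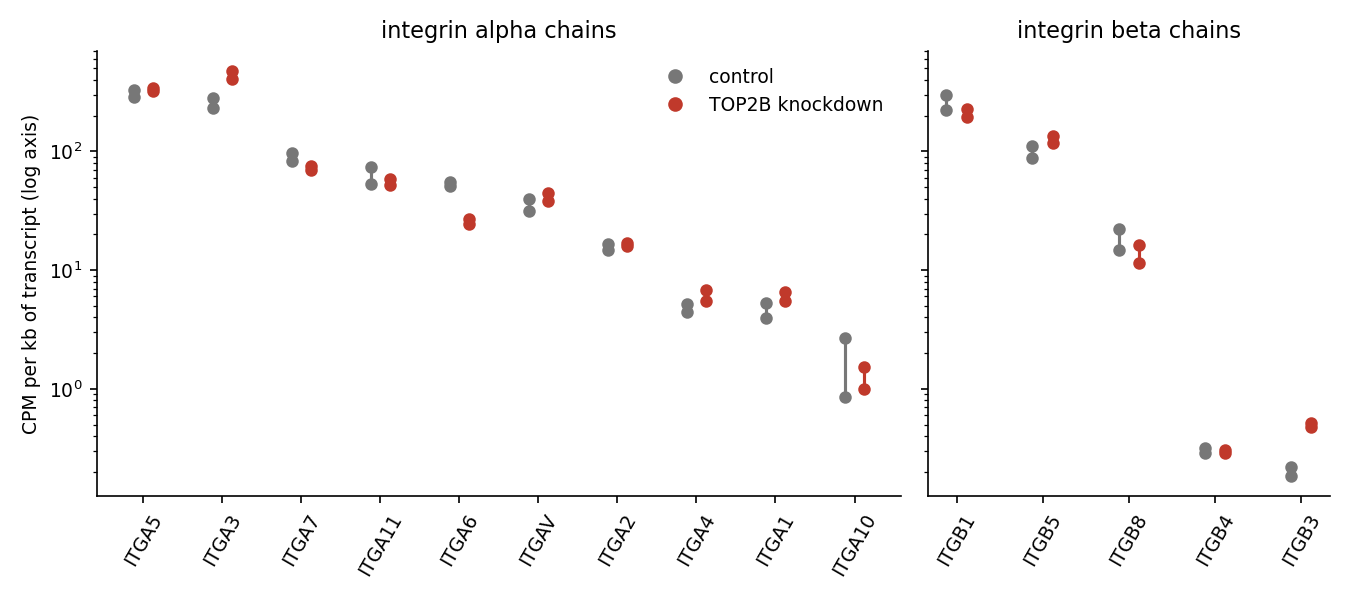
Level of each integrin chain in CPM per kb of canonical transcript on a log axis, with alpha chains on the left and beta chains on the right, in order of their control level. Each point is a library, grey for control and red for TOP2B knockdown. ITGA3 rose above ITGA5, ITGA6 fell below ITGAV and ITGB3 rose from the lowest level of the beta chains shown.

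Of the proteins that activate integrins or link them to actin, FLNA and TNS3 were higher and TLN2 was lower. FLNA (chromosome X from 154348524 to 154374634) encodes filamin A, which crosslinks actin filaments and binds beta chain tails. It took the most reads of the set, with control levels of 2424 and 2313 CPM and knockdown levels of 4681 and 4255 CPM. The spread within either group was small beside the difference, and FLNA rose by 0.92 ± 0.18 on the log2 scale (SE; p adj = 0.0108, edgeR). In fits on 3 libraries the value was 0.85 to 0.99. It was then not past the threshold without control replicate 1 (0.95, p adj = 0.0625), control replicate 2 (0.89, p adj = 0.0772) or knockdown replicate 1 (0.85, p adj = 0.142).

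TNS3 (chromosome 7 from 47275154 to 47582558), one of the tensins that join beta chain tails to actin, had 428.1 and 389.1 CPM in control against 596.5 and 569.3 CPM after knockdown. It rose by 0.51 ± 0.14 on the log2 scale (SE; p adj = 0.0459, edgeR). This call is close to the threshold and was not kept in any of the 4 fits on 3 libraries, in which the value lay between 0.45 and 0.58 and p adj between 0.132 and 0.328 (edgeR). TNS1, its relative, had control levels of 62.5 and 62.6 CPM and knockdown levels of 57.7 and 51.8 CPM and a log2(fold change) estimated at -0.19 (p adj = 0.343, edgeR).

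The talins bind beta chain tails and switch integrins to the active state. TLN2 (chromosome 15 from 62390526 to 62844631), the talin with the lower level per kb, had 96.9 and 100.01 CPM in control against 68.7 and 64.4 CPM after knockdown. It fell by 0.56 ± 0.12 on the log2 scale (SE; p adj = 0.0143, edgeR), with -0.53 without control replicate 2 (p adj = 0.0572) and -0.51 without knockdown replicate 2 (p adj = 0.0934). TLN1, the main talin, had control levels of 966.9 and 1010 CPM and knockdown levels of 1124 and 1105 CPM, with a log2(fold change) of 0.17 and a 95% interval of -0.16 to 0.51. Per kb of transcript TLN1 stood at 13.9 and 14.1 times TLN2 in the control libraries and at 22.8 and 23.9 times in the knockdown libraries.

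The other linkers did not pass. VCL, vinculin, which binds talin under force, had 904.7 and 709.0 CPM in control against 933.6 and 752.2 CPM after knockdown, with a 95% interval of the log2(fold change) of -0.34 to 0.46. The alpha-actinins ACTN1 and ACTN4, which crosslink actin, had log2(fold changes) of 0.29 (95% interval -0.04 to 0.62) and 0.17 (-0.19 to 0.52), and for both the knockdown libraries lay above the control libraries. FERMT2, kindlin-2, the co-activator of integrins beside talin, had 67.4 ± 0.92 CPM in control and 60.9 ± 5.11 CPM after knockdown (SD, n = 2) and a log2(fold change) of -0.14 (95% interval -0.41 to 0.12).

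Of the kinases and scaffolds, LIMS1 and CAV1 were higher. LIMS1 (chromosome 2 from 108533671 to 108687246) encodes PINCH1, the adaptor that joins ILK and parvin in one complex. It had control levels of 25.3 and 25.8 CPM and knockdown levels of 72.1 and 83.2 CPM, the largest change of the set. LIMS1 rose by 1.60 ± 0.13 on the log2 scale (SE; p adj = 0.000424, edgeR), between 1.51 and 1.71 in the fits on 3 libraries. Its near-identical copies LIMS3 and LIMS4 had no read (0) in any library, and reads that fit a copy equally well may not have been counted for LIMS1 either. The partners of PINCH1 did not pass. PARVA, alpha-parvin, had 243.3 and 296.3 CPM in control against 247.1 and 299.5 CPM after knockdown, nearly the same by replicate, with a 95% interval of -0.33 to 0.36.

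ILK had 98 and 77 reads in the control replicates and 58 and 27 reads in the knockdown replicates. The groups did not overlap, but the log2(fold change) of -0.87 (standard error 0.32) did not pass (p adj = 0.118, edgeR). It passed without control replicate 2 (-0.99, p adj = 0.0484), without knockdown replicate 1 (-1.47, p adj = 0.00568) and with no filter on counts (-0.87, p adj = 0.0111). Other annotated genes, TAF10 among them, overlap 78.5% of the exon bases of ILK on either strand, which makes its level uncertain. Where its reads fall was not tested.

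CAV1 (chromosome 7 from 116524994 to 116561179) encodes caveolin-1, the coat protein of caveolae. It had control levels of 441.0 and 471.1 CPM and knockdown levels of 612.7 and 691.1 CPM. It rose by 0.52 ± 0.15 on the log2 scale (SE; p adj = 0.0497, edgeR). The call is at the threshold: p adj was 0.0560 when edgeR took its scaling from DESeq2, and between 0.142 and 0.330 in the 4 fits on 3 libraries, with values of 0.43 to 0.60.

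Among the kinases and scaffolds, PTK2, PXN, BCAR1 and ZYX had values near 0, unlike LIMS1, CAV1 and ILK. PTK2, the focal adhesion kinase FAK, had 161.2 and 182.8 CPM in control against 146.2 and 168.8 CPM after knockdown, with a log2(fold change) of -0.13 (95% interval -0.43 to 0.17). PXN, paxillin, had control levels of 314.5 and 353.9 CPM and knockdown levels of 329.2 and 349.8 CPM, with one of 0.02 (-0.28 to 0.33). BCAR1, the scaffold p130Cas, had a log2(fold change) of -0.07 (-0.37 to 0.22), and ZYX, the force-sensing zyxin, one of 0.01 (-0.32 to 0.35). For all 4 of these genes the groups overlap, and changes within these bounds were not told from none with 2 libraries per group.

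**Figure D3:**
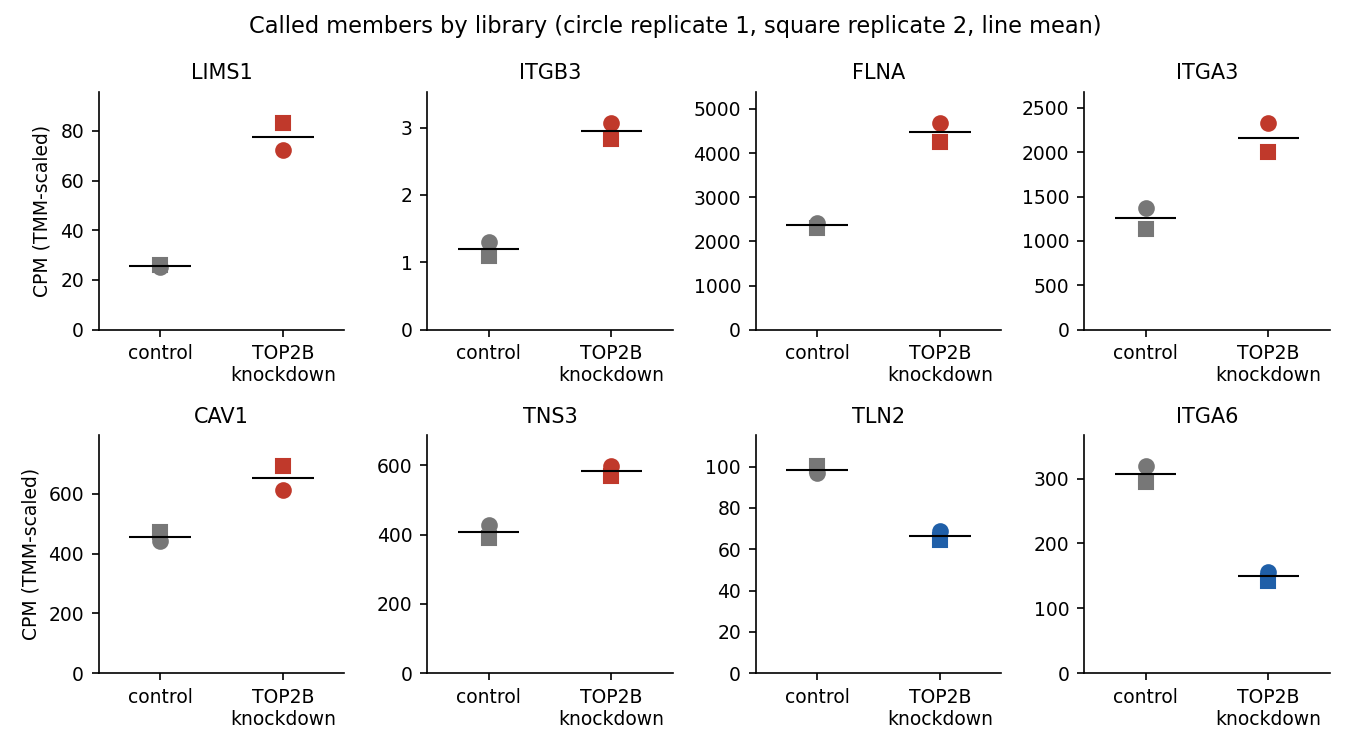
TMM-scaled CPM of the 8 called genes in each library, with circles for replicate 1, squares for replicate 2 and lines for group means; each axis starts at 0 and has its own scale. In every panel both knockdown libraries lie on one side of both control libraries, as they do for 54.3% of all tested genes. The 8 genes were picked by the test on these same libraries.

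The integrin chains and the cytoplasmic proteins differed in how the replicates of one condition compared. All 15 integrin chains of the set had a higher log2 CPM in replicate 1 than in replicate 2 in control and also in knockdown cells. This held for 5 of the 17 tested cytoplasmic proteins and for 38.7% of all tested genes. Of 4 further integrin chains tested outside the set, it held for 2, while ITGAE went the other way in both conditions. The median difference of replicate 1 from replicate 2 over the integrin chains was 0.28 in control and 0.18 in knockdown libraries on the log2 scale, against -0.06 and -0.06 over the cytoplasmic proteins and 0.01 and 0.001 over all genes. What the replicate number stands for is not stated in the labels.

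**Figure D4:**
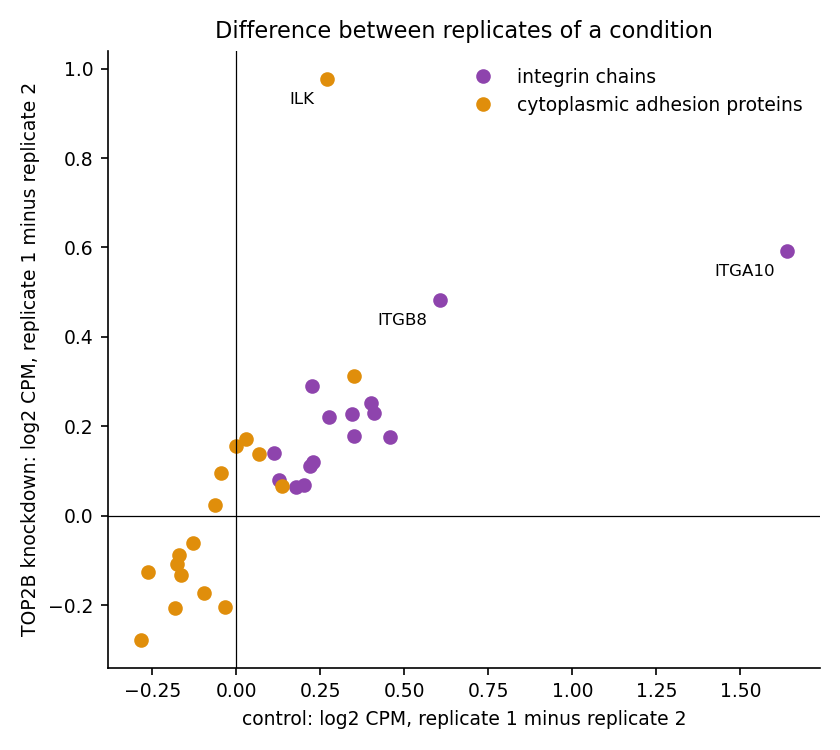
Difference of replicate 1 from replicate 2 in log2 CPM, in control libraries on the x axis and in TOP2B knockdown libraries on the y axis, for the 32 tested genes. All 15 integrin chains (purple) lie above 0 on both axes, while the cytoplasmic proteins (orange) lie on either side.

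A word of 6 bases in the 3′ UTR, GCAACC, had earlier been tied to rises in these libraries and was therefore looked up in the set. It was present in the 3′ UTR of the canonical transcript of 12 of the 33 genes, or 36.4%, against 23.6% of the 12383 tested genes whose 3′ UTR had 50 bases or more. By call it was present in 3 of the 6 genes that rose (LIMS1, CAV1 and TNS3), in 0 of the 2 that fell and in 9 of the 24 that did not pass. Over all genes it was present in 39.3% of those called higher, 19.8% of those called lower and 22.5% of those not called. These are counts of matches in the same libraries in which the word had been tied to rises, so that they are no separate test of it. The shares were not set against the length of the 3′ UTR. Whether the sites act on the transcripts was not tested. The windows of the 3 genes that rose are shown first and those of 3 genes that did not pass after them, so that the bases beside the word can be compared. Each has 30 bases of GRCh38 on the strand of the gene, with the word in capitals, and lies at chr2:108687178-108687207 (LIMS1, plus strand), chr7:116560451-116560480 (CAV1, plus), chr7:47277065-47277094 (TNS3, minus), chr5:52955890-52955919 (ITGA1, plus), chr10:74119416-74119445 (VCL, plus) and chr11:12528036-12528065 (PARVA, plus).
LIMS1: tgttttcatataGCAACCaccacagtatat
CAV1: agtaaagcacttGCAACCgtctgttatgct
TNS3: gctttgcctcaaGCAACCtaccctgatgtt
ITGA1: tttgatgcttctGCAACCataataatttta
VCL: tcctacctccctGCAACCaactacaaccaa
PARVA: acaagtccagctGCAACCcagagatagtgg
PARVA holds 3 copies of the word in its 3′ UTR and had a log2(fold change) of 0.02, and ITGB8 holds 2 copies and had one of -0.42. FLNA, ITGA3 and ITGB3, which rose, hold none.

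A wider list of 83 other adhesion genes was examined in the same fit, 11 further integrin chains and 72 adaptors and regulators. Of these, 72 were tested, 8 were higher and 2 lower, which is 13.9% called, where 10.8% of all genes were. Their median log2(fold change) was -0.036. Of the further integrin chains, 4 had enough reads, and ITGB2, the beta chain of leukocyte integrins, was higher, with 36 and 25 reads in the control and 74 and 94 reads in the knockdown replicates, a difference of 1.64 ± 0.29 on the log2 scale (SE; p adj = 0.00705, edgeR). The leukocyte marker PTPRC had at most 7 reads in a library. ITGAX, one of the alpha partners of beta2, had 104 and 72 reads in control and 47 and 38 reads in knockdown libraries and did not pass (log2(fold change) -0.87, p adj = 0.0646, edgeR), with an adjusted p of 0.0107 to 0.144 under the other scalings, filters and DESeq2.

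Of the adaptors and regulators, 7 rose. PDLIM5 and PDLIM7, which join actin stress fibres to kinases, had log2(fold changes) of 1.03 and 0.58. The paxillin relative TGFB1I1 (Hic-5) rose by 0.69, CAV2, the partner of caveolin-1, by 0.57, CIB1, which binds integrin tails, by 0.53, SHARPIN, an inhibitor of integrin activation, by 0.51, and ENAH, an actin polymerase cofactor of the VASP family, by 0.44. CASS4, a relative of BCAR1, fell by 1.84, from 54 and 88 reads to 10 and 25, and ARHGEF7 (beta-PIX), a guanine exchange factor for RAC1, by 0.44. The calls of CIB1, ENAH, ARHGEF7 and SHARPIN were close to the threshold, with p adj of 0.0410, 0.0405, 0.0391 and 0.0332 (edgeR). The kinase SRC and the motor chain MYH9 had log2(fold changes) of 0.22 and 0.01 and did not pass. In the fits on 3 libraries the number of genes of the wider list called higher was 3 without control replicate 1, 4 without knockdown replicate 2 and 7 without either of the others, and 1 was called lower in each fit but that without control replicate 2, where 2 were.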

How the data were processed

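The authors checked the reads with FastQC 0.11.6, aligned them to GRCh38 with STAR 2.5.4a and took gene counts while mapping, on the Gencode v24 annotation. The deposited values are raw counts per gene. The column names carry tags for stranded and paired-end data, while the methods give single-end reads and no strand setting for the counts, so that the use of strand is uncertain. The table holds each library a second time with identical values, and these 4 columns were not used.

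Genes that reached 10 counts in 2 or more libraries were tested with edgeR 4.0.16 in R 4.3.3 (TMM scaling, glmQLFit and glmQLFTest, condition as the only term, two-sided, Benjamini-Hochberg adjustment over 15356 genes). Calls were made below an adjusted p of 0.05. CPM is the count over the TMM-scaled library size, where 1 CPM is 20.2 to 23.9 reads, and a prior count of 2 went into log2 CPM. Standard errors and 95% intervals come from the quasi-likelihood fit, in which the variance of a gene is drawn toward that of other genes. They cover the spread of these libraries, 2 per group, called independent biological replicates by the study. They do not measure the spread of a gene's own libraries alone.

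All members are named. Values by library are given for called members, for those with a change of at least 0.5 on the log2 scale and for 6 core genes, and every called gene of the wider list is named. Values by library of ITGA2, ITGA5, ITGA10, ITGA11, TNS1 and PARVA, and the genes of the wider list that did not pass, were added after their values were seen. The members and lists were chosen with earlier results of these data known. Symbols, positions, overlap of exons on either strand and 3′ UTRs came from GENCODE v44 on GRCh38, which held 98.9% of the tested genes. Promoters came from RefSeq (GRCh38.p14). Alternatives were other scalings, DESeq2 1.42.0, other count filters, the replicate number as a block, protein-coding genes alone and fits without each library, in which a lone sample is assumed to vary like the other group. The scripts were tested on simulated data.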

Additional observations from a re-analysis of the deposited data

How the results depend on the processing

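Changes of scaling, of the test and to protein-coding genes alone left 5 or 6 members called higher and 2 called lower. With no filter on counts 4 members were called lower (ITGA6, ITGB8, TLN2 and ILK). Of the wider list, 7 genes were called lower by DESeq2, 6 with no filter and 1 with a mean of at least 100 counts. Over the fits without one library, 2 to 4 members were called higher and 1 to 5 lower, 3 to 7 genes of the wider list higher and 1 to 2 lower, and the members' median ran from 0.042 to 0.12. TOP2B was called lower in every fit.

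The replicate numbers are shared between the groups, and replicate 1 deviated from its group mean in the same way in both (Pearson's r = 0.478 across genes). The labels do not say that a number marks a shared batch, and there are only 2 pairs. With the replicate block, 14 members were called higher and 9 lower, and of the wider list 22 higher and 20 lower, where 3440 and 3346 of all genes were called. Beyond the members called without it, the block added ITGA1, ITGA4, ITGA5, ITGAV, ITGB5, TLN1, ACTN1 and ACTN4 as higher. As lower it added ITGA7, ITGA11, ITGB1, ITGB8, TNS1, PTK2 and ILK.

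Some values changed sign, all but that of ITGA10 (-0.49) and ITGA11 (-0.20) within 0.1 of 0. ZYX was -0.0026 with DESeq2. In the fits without one library the log2(fold change) ranged from -0.011 to 0.16 for ITGA2, -1.08 to 0.57 for ITGA10, -0.40 to 0.046 for ITGA11, -0.10 to 0.023 for ITGB4, -0.097 to 0.25 for VCL, -0.062 to 0.12 for PXN, -0.16 to 0.024 for BCAR1, -0.12 to 0.17 for PARVA and -0.11 to 0.16 for ZYX. The cause was not tested. With 2 libraries per group, changes within the intervals given were not told from none, and ITGB3, ITGB4 and ILK had at most 98 reads in a library.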

Other observations

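Of the wider adhesion list, 5 genes encode membrane proteins that associate with integrins, the tetraspanins CD9, CD81, CD151 and TSPAN4 and the integrin-associated protein CD47. This group was picked after the values were seen. None of the 5 passed the test in edgeR. CD151, which binds alpha3 and alpha6, stood at 0.47 on the log2 scale (p adj = 0.0871, edgeR) and was called by DESeq2 (p adj = 0.0184). Like the integrin chains of the set, all 5 had a higher log2 CPM in replicate 1 than in replicate 2 in both conditions. The median differences were 0.26 in control and 0.24 in knockdown libraries.

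The next genes were also picked after the values were seen. CAVIN1, the cavin that shapes caveolae, had 619.4 and 785.6 CPM in control and 447.2 and 538.4 CPM in knockdown libraries and a log2(fold change) of -0.51 that did not pass in edgeR (p adj = 0.0871) and was called by DESeq2 (p adj = 0.0163). LIMS2, the close relative of LIMS1, had 12 and 16 reads in control and 3 and 3 reads in knockdown libraries and did not pass (p adj = 0.0542, edgeR), with an adjusted p of 0.0294 to 0.0551 under the other scalings and filters.

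The tested genes of the set are long, with a median of 84.5 kb from start to end against 28.3 kb over all tested genes, and abundant, with a median of 271 CPM against 20.8 CPM. Across the 32 genes Spearman's rho of gene length with the log2(fold change) was 0.037, and across all tested genes -0.027. Genes are not independent replicates, and these values describe the libraries only.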
